A study of Rattus norvegicus with 17 samples.

Results

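Mitochondrial ribosomal proteins were described by the transcripts of 71 genes, 44 named for the large subunit (Mrpl) and 27 for the small subunit (Mrps), out of 14506 genes that had a probe set with 1 symbol. Members were all genes whose symbol is Mrpl or Mrps followed by a number, in any case, so that mrpl11, mrpl24 and mrpl9 are written as the array annotation has them. They came from 75 probe sets. Where a gene had more than 1, which held for 4 genes, the brightest by its mean across the 17 arrays was used. Mrps30 and Mrps18a are named for the small subunit but sit in the large one in known structures, which makes 46 large and 25 small subunit proteins by place.

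The RNA came from ventricular myocytes of neonatal Sprague-Dawley rats, cultured for 5 days by the labels, and was read on 17 Affymetrix arrays. In 6 samples the cells had received uremic plasma at 10% taken before nocturnal hemodialysis (NHD), a long overnight form of dialysis, and in 6 samples such plasma taken after NHD. Another 3 samples received control plasma, whose share is not stated, and 2 received phenylephrine (PE), which activates alpha-1 adrenergic receptors and is used to make myocytes grow in culture. The medium of the PE cultures is not stated. All 4 groups are cultures without a heart's other tissue, and the labels call the samples biological replicates without naming cultures or plasma donors, so p-values measure only the spread between these samples.

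The mitochondrial ribosome translates the few respiratory chain and ATP synthase proteins encoded by mitochondrial DNA. Its RNAs come from the mitochondrial genome, but all of its proteins are encoded in the nucleus, made by cytosolic ribosomes and imported. Some belong to families shared with bacterial ribosomes and others are found only in mitochondria. Heart muscle depends heavily on respiration, and its mitochondria hold many of these ribosomes.

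The authors had summarised each probe set with RMA, on the log2 scale. Array medians lay between 6.89 and 7.03, and no 2 arrays held identical columns. The 12 myocyte markers had a summed log2 level of 16.60 to 16.62 with control plasma, 16.57 to 16.81 before NHD, 16.77 to 16.90 after NHD and 16.72 to 16.73 with PE. Those of 12 fibroblast markers were 13.13 to 13.16, 12.40 to 14.13, 12.51 to 13.99 and 14.29 to 14.56. In such bulk samples fewer cells of a type and less RNA per cell cannot be told apart. Differences were tested with limma over all 29214 probe sets, adjusted by the Benjamini-Hochberg method with a threshold of 0.05. A gene is called higher or lower where it passed. All comparisons with control plasma share the same 3 arrays.

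The sequence before the start of a nuclear gene holds sites for the factors that control it, and 57 of the 71 genes matched a promoter in RefSeq (assembly GRCr8, 250 bases before to 50 after the start). Shown are the 250 bases before the start for the 3 matched genes with the greatest rises (mrpl11, Mrpl23, Mrpl48) and the 3 with the greatest falls (Mrps18b, Mrpl32, Mrpl57) after NHD against control plasma, since these carry the contrast within the family. All are given 5′ to 3′ on the gene's strand. Capitals mark matches, on either strand, to GCGCATGCG (NRF1), CCGGAAG (ETS factors such as GABP), AAGATGGCG (YY1) or GGGCGG (SP1). The first, of mrpl11, lies at chr1:211693557-211693806 on the plus strand and holds no match.
mrpl11: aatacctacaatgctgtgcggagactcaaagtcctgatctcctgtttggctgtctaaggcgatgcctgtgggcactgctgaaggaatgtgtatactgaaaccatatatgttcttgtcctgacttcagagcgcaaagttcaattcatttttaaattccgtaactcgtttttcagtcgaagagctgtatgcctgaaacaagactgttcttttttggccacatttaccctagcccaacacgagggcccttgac
That of Mrpl23 (chr1:207116680-207116929, plus strand) holds 1 SP1 and 1 ETS match.
Mrpl23: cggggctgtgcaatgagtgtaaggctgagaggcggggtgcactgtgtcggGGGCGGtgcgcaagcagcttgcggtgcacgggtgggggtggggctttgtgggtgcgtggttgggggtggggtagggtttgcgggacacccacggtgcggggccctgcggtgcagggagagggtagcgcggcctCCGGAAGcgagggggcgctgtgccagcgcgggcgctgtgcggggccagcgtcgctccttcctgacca
That of Mrpl48 (chr1:164351377-164351626, minus strand) holds 1 ETS match.
Mrpl48: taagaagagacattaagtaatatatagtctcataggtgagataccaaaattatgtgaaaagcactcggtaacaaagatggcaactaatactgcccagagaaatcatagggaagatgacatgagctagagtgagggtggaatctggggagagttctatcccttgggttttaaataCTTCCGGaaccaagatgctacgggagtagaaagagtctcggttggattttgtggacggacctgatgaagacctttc
That of Mrps18b (chr20:2842756-2843005, plus strand) holds 2 SP1 matches and an NRF1 palindrome that matches on both strands.
Mrps18b: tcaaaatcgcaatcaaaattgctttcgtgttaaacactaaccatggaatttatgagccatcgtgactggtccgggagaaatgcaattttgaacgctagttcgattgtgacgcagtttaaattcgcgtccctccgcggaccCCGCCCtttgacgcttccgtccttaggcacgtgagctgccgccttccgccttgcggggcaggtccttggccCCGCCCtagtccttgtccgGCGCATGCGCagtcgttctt
That of Mrpl32 (chr17:55260401-55260650, plus strand) holds the same palindrome and 1 SP1 match.
Mrpl32: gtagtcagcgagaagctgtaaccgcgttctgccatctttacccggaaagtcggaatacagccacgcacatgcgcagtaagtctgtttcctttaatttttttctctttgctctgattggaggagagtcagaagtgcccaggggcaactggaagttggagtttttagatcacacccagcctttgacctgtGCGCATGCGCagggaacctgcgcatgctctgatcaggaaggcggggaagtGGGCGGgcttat
That of Mrpl57 (chr15:36086207-36086456, plus strand) holds 2 overlapping SP1 matches and 1 ETS match.
Mrpl57: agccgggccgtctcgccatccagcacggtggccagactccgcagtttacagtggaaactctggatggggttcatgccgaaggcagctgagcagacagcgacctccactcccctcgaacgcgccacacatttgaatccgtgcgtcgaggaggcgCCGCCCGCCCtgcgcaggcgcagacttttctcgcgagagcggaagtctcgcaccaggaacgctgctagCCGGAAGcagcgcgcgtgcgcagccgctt

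Over the whole 300-base window, the ETS letters were in 18 of the 57 promoters (31.6%), against 8.75% of the 33469 promoters in the table. The YY1 letters were in 9 (15.8%, against 1.73%), the NRF1 letters in 5 (8.77%, against 1.52%) and the SP1 letters in 29 (50.9%, against 33.1%). NRF1 and GABP are textbook activators of nuclear genes for mitochondrial proteins. Among the matched genes that were higher after NHD than with control plasma, 11 of 32 held the ETS letters and 1 of 32 the NRF1 letters. Among those that were lower, 4 of 6 held the ETS letters and 2 of 6 the NRF1 letters. Among those that did not pass, 3 of 19 held the ETS letters and 2 of 19 the NRF1 letters. The YY1 letters were in 4 of the 32 higher, 5 of the 19 that did not pass and 0 of the 6 lower. These are matches of letters and were not tested. Each member counted with 1 promoter, while the table shares take in every promoter listed, not only those of the genes measured.

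After NHD, 39 of the 71 genes were higher than with control plasma, 7 were lower and 25 did not pass. Over all 14506 genes 16.7% were higher and 16.3% lower. The median difference of the members was 0.43 on the log2 scale, against -0.07 for all genes. Both subunits showed this. Of the 44 large subunit genes 24 were higher and 5 lower (median 0.40), and of the 27 small subunit genes 15 were higher and 2 lower (median 0.46). By place in the structure the counts were 25 and 5 of 46, and 14 and 2 of 25.

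**Figure D1:**
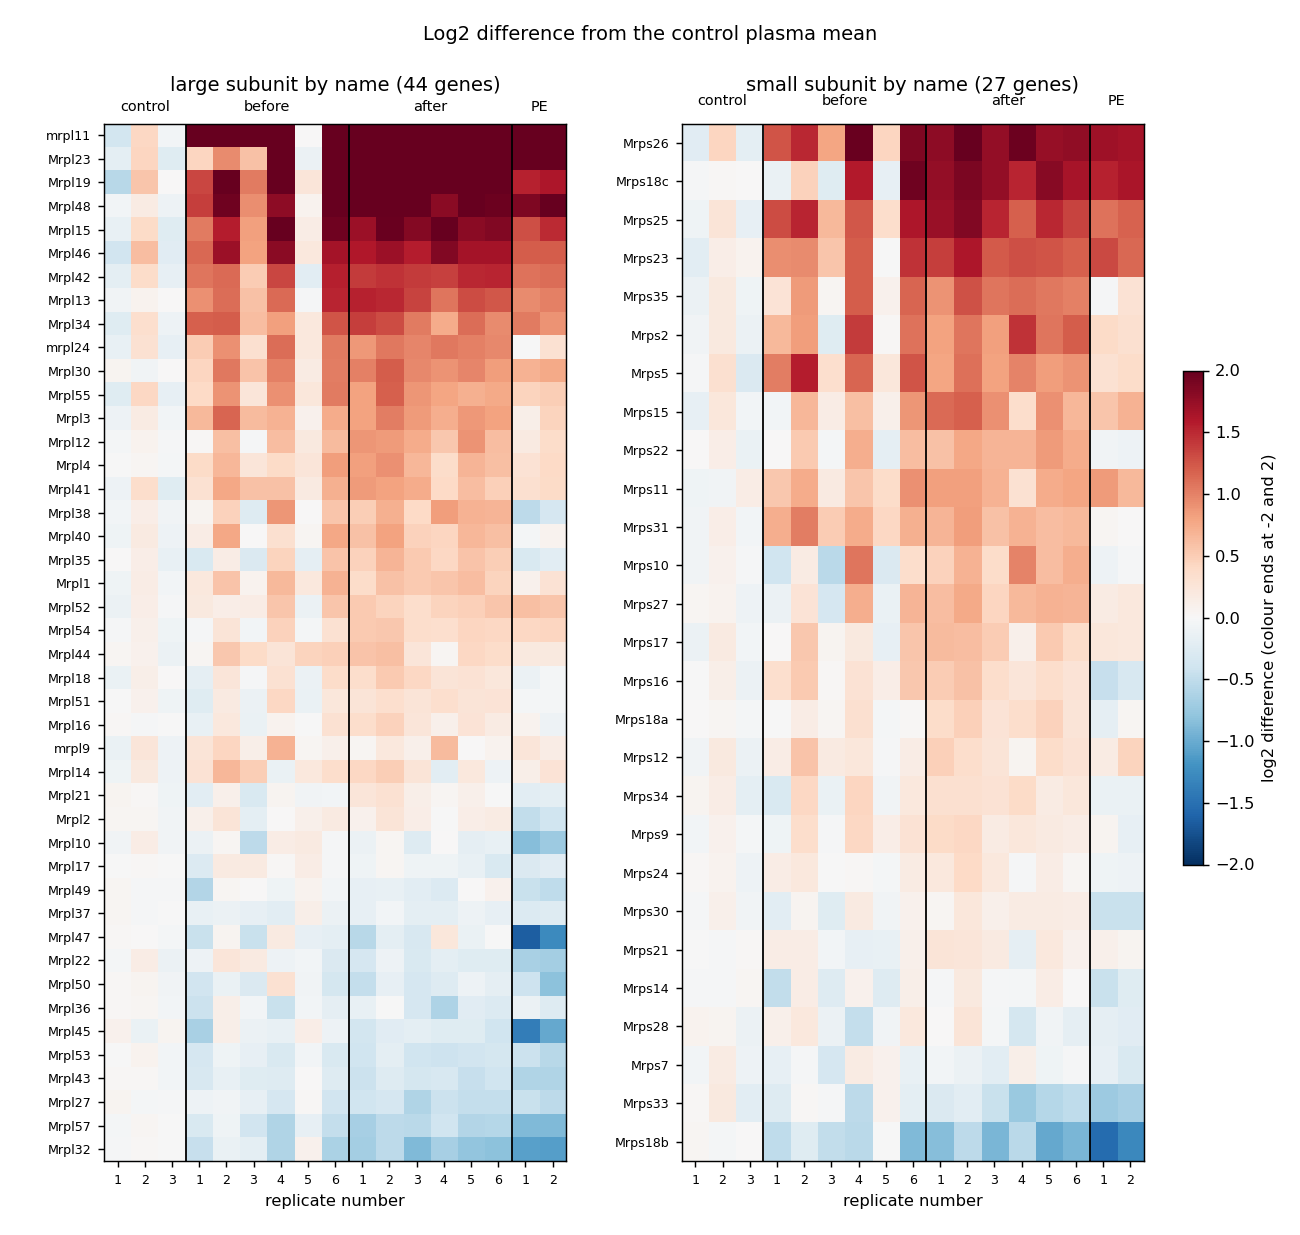
Log2 difference of each gene (row) from its control plasma mean on each array (column, grouped by treatment, with replicate numbers below), for genes named for the large (left, 44) and small (right, 27) subunit, ordered by the mean difference after NHD. The after NHD columns are red in the upper rows, from mrpl11 (3.26) downwards, and blue in the lowest, down to Mrps18b (-0.79), and the before NHD columns differ among themselves.

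In the stalk of the large subunit, where translation factors dock, the transcript of mrpl11 had the greatest rise. Its log2 level was 6.66, 7.44 and 6.98 with control plasma, and its lowest, median and highest values were 9.89, 10.30 and 10.58 after NHD. The groups lay far apart, and the difference was 3.26 ± 0.52 (SE, limma adjusted p = 0.000627), or 9.57-fold. Mrpl12, the stalk protein that also binds the mitochondrial RNA polymerase, went from 8.96, 9.08 and 8.98 to between 9.55 and 9.91, by 0.75 ± 0.15 (adjusted p = 0.00203). Mrpl10, which holds Mrpl12 on the ribosome, did not pass (-0.11 ± 0.13).

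Of the 5 genes listed here for the exit of the peptide tunnel, 2 were higher after NHD, 0 were lower and 3 did not pass. The list does not hold every protein of this part. Mrpl17 and Mrpl32 are not on it, and Mrpl32 was lower. Mrpl23 lay at 7.84, 8.47 and 7.80 with control plasma and between 10.50 and 10.62 on all 6 after NHD arrays. That rise of 2.52 ± 0.44 (adjusted p = 0.000922) was the second greatest of the family, and the after NHD arrays differed among themselves by less than the control arrays. mrpl24, another protein of the tunnel rim, rose by 0.99 ± 0.18. Mrpl22, Mrpl45, which ties the ribosome to the inner membrane, and Mrpl47 had differences of -0.24, -0.28 and -0.16, none of which passed. RefSeq lists 1 further copy or like gene of Mrpl23, 1 of Mrpl45 and 2 of Mrpl47, whose transcripts these probe sets might also read.

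The central protuberance is the part of the large subunit that bridges to the head of the small one. The 4 genes listed here for it were all higher after NHD. All 4 code for proteins found only in mitochondria, and the list does not hold every protein of this part. Mrpl48 went from 6.19, 6.41 and 6.14 to a range of 8.05 to 8.68, a rise of 2.11 ± 0.32 (adjusted p = 0.000497). Mrpl46 rose by 1.68 ± 0.29, Mrpl38 by 0.64 ± 0.19 and Mrpl40 by 0.59 ± 0.16. The 4 genes differed in size of rise, and in none did the ranges overlap. How often ranges stand apart over all genes was not counted, for this or any other comparison.

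Elsewhere in the large subunit, Mrpl19 lay at 6.66, 7.77 and 7.22 with control plasma and between 9.51 and 9.85 after NHD (2.43 ± 0.39, adjusted p = 0.000639). Mrpl15, a protein of the subunit's core, went from 8.83, 9.36 and 8.74 to between 10.68 and 11.06 (1.88 ± 0.32, adjusted p = 0.000821). Mrpl42 lay at 11.30, 11.87 and 11.34 and then between 12.87 and 13.02 (1.44 ± 0.27), and its second probe set differed by 1.18. In all 3 the ranges stood apart. Further rises of 0.34 to 1.34 were seen in Mrpl13, Mrpl34, Mrpl30, Mrpl55, Mrpl3, Mrpl4, Mrpl41, Mrpl35, Mrpl1, Mrpl52, Mrpl54, Mrpl44 and Mrpl18.

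In the small subunit Mrps26 rose from 7.44, 8.09 and 7.46 to between 9.40 and 9.69 (1.84 ± 0.27, adjusted p = 0.000449, the smallest among the members). Mrps25 went from 7.93, 8.28 and 7.85 to between 9.21 and 9.88, by 1.53 ± 0.23. Mrps23 (1.33 ± 0.22), Mrps35 (1.07 ± 0.23) and Mrps2 (1.07 ± 0.27) followed. Mrps5, Mrps15, Mrps22, Mrps11, Mrps31, Mrps27, Mrps17 and Mrps16 rose by 0.38 to 0.90. Mrps12, a protein of the decoding centre, differed by 0.30 ± 0.13 and did not pass.

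The 3 paralogues of bacterial S18 did not move together. Mrps18c lay at 8.55, 8.60 and 8.58 with control plasma and between 10.09 and 10.45 after NHD, a rise of 1.73 ± 0.39 (adjusted p = 0.00391). Mrps18b lay at 11.31, 11.22 and 11.27 with control plasma and had its lowest, median and highest values at 10.24, 10.38 and 10.75 after NHD, a fall with a log2 difference of -0.79 ± 0.16 (adjusted p = 0.00209). Mrps18a, the paralogue placed in the large subunit, rose by 0.36 ± 0.09. In each of the 3 the after NHD and control ranges did not overlap.

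The 7 genes that were lower after NHD differed by -0.36 to -0.79. Mrpl32, whose precursor is cut by the m-AAA protease of the inner membrane before it enters the ribosome, went from 9.41, 9.47 and 9.44 to between 8.55 and 8.92 (-0.73 ± 0.14, adjusted p = 0.00152). Mrpl57 went from 11.65, 11.73 and 11.67 to between 11.02 and 11.29 (-0.55 ± 0.10). Both lay below every control array. Mrps33 (-0.46 ± 0.14), Mrpl27, a protein next to the peptidyl transferase centre (-0.45 ± 0.10), Mrpl43 (-0.37 ± 0.08) and Mrpl53 (-0.36 ± 0.09) completed this set with Mrps18b. Mrps33 overlapped its control range.

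**Figure D2:**
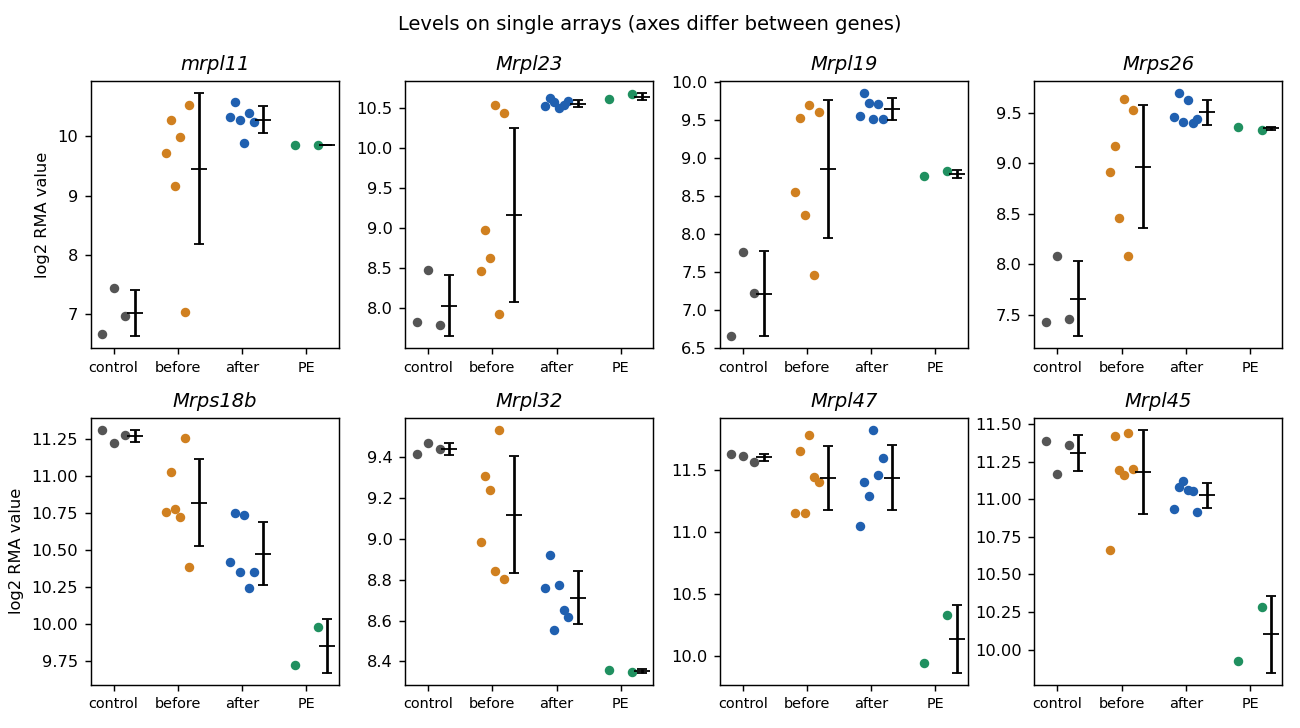
Log2 RMA values of 8 genes on single arrays (points) by group, with the group mean ± SD beside them (control plasma n = 3, before NHD n = 6, after NHD n = 6, PE n = 2). In mrpl11, Mrpl23, Mrpl19 and Mrps26 the after NHD points lie above all control points, in Mrps18b and Mrpl32 below them, and in Mrpl47 and Mrpl45 the PE points lie below all others.

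Other properties of the genes were set beside the counts. Of 43 proteins with a bacterial family 22 were higher and 3 lower (median 0.36), and of 28 found only in mitochondria 17 were higher and 4 lower (median 0.53). RefSeq lists further copies or like genes for 23 members. Besides the 3 tunnel genes these are Mrpl1, Mrpl2, Mrpl15, Mrpl17, Mrpl30, Mrpl32, Mrpl37, Mrpl40, Mrpl41, Mrpl42, Mrpl46, Mrpl54, Mrps10, Mrps11, Mrps16, Mrps17, Mrps18b, Mrps18c, Mrps21 and Mrps25. Of these 14 were higher and 2 lower, against 25 and 5 of the 48 others. Whether such shares differ was not tested. The 25 genes that did not pass had differences between -0.28 and 0.64. They include Mrpl51 and Mrps21, which with Mrpl42 had the highest probe set values of the family.

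Of the 46 calls after NHD, 33 held when each of the 17 arrays was left out in turn. The other 13, in Mrpl1, Mrpl18, Mrpl35, Mrpl38, Mrpl40, Mrpl44, Mrpl52, Mrpl54, Mrps5, Mrps16, Mrps17, Mrps27 and Mrps33, were lost without at least 1 array, among them control array 1 or control array 3 in each. The spread of all values on an array (its SD) was 2.24 to 2.32 with control plasma and 2.32 to 2.34 after NHD. With the array SD as a term in the fit, 19 genes were higher and 6 lower, 25 of the same 46. Those 13 lost their calls in that fit too, as did Mrpl41, Mrpl55, Mrps2, Mrps15, Mrps18a, Mrps18c, Mrps22 and Mrps35. The part of the array SD in the differences was not otherwise tested.

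Plasma taken before NHD gave higher values than control plasma in 16 of the 71 genes and lower values in 0 (32 at an unadjusted p under 0.05, in either direction). Over all genes 3.75% were higher and 2.09% lower, and 3964 of the 14506 had an unadjusted limma p under 0.05. The median member difference was 0.21, against -0.05 for all genes. The 16 comprised 10 large and 6 small subunit genes. With only the 9 arrays of these groups in the fit limma called 0 (24 at an unadjusted p under 0.05), and with the array SD as a term 0 (23).

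For mrpl11 the before NHD arrays 1 to 6 read 9.72, 10.28, 9.16, 9.99, 7.04 and 10.53. Array 5 lay within the control range and the other 5 lay above it, and the difference was 2.43 ± 0.52 (adjusted p = 0.0249). Mrpl19 read 8.55, 9.53, 8.25, 9.70, 7.46 and 9.61, again with array 5 alone within the control range (1.63 ± 0.39, adjusted p = 0.0319). Mrps26 showed the same order of arrays at its ends, from 8.08 on array 5 to 9.63 on array 4 (1.30 ± 0.27). Mrps25, at 8.37 to 9.63, lay above all control arrays (1.11 ± 0.23), as did Mrps11 (0.55), Mrps31 (0.69) and Mrpl30 (0.71). Mrpl48 (1.37 ± 0.32), Mrpl15 (1.28 ± 0.32), Mrpl46 (1.22 ± 0.29), Mrps5 (0.93), Mrpl34 (0.89), Mrpl13 (0.88), Mrps23 (0.85), mrpl24 (0.68) and Mrpl3 (0.66) made up the rest.

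The before NHD arrays differed among themselves more than those of any other group. The root mean square SD of the members was 0.426 before NHD, 0.188 with control plasma, 0.152 after NHD and 0.106 with PE. The median member lay 0.04, 0.43, 0.00, 0.42, 0.03 and 0.47 above its control mean on before NHD arrays 1 to 6, and 0.34 to 0.58 above it on the 6 after NHD arrays. The SD of all values on before NHD arrays 1 to 6 was 2.24, 2.32, 2.33, 2.33, 2.27 and 2.37. The closest of all array pairs was before NHD 4 and after NHD 4. Without before NHD array 5 the comparison with control plasma called 27 members (23 higher, 4 lower). It called 8 without before NHD array 1, 2 without array 2, 9 without array 4, 4 without array 6 and 10 without after NHD array 5. It called 0 without control array 1 and 0 without control array 3 (25 at an unadjusted p under 0.05 in each). Calls over all genes were not counted in the fits with an array left out.

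**Figure D3:**
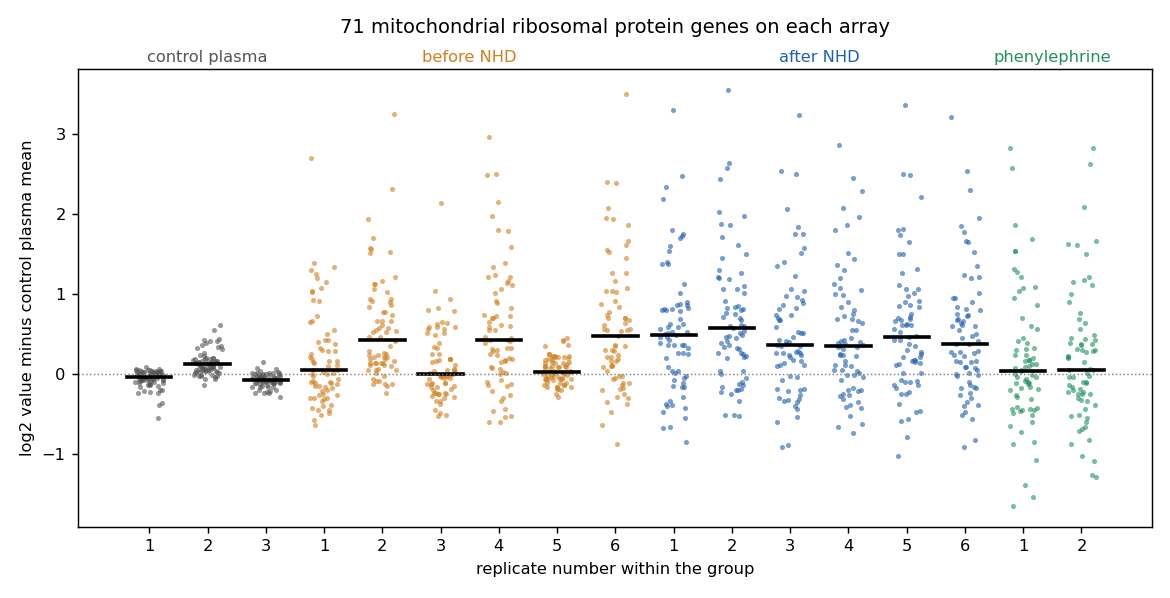
Each point is 1 of the 71 genes on 1 array, as its log2 value minus its mean over the 3 control plasma arrays, and the black bar is the median of the 71. The median lies at 0.34 to 0.58 on the after NHD arrays, near 0 or between 0.42 and 0.47 on the before NHD arrays, and at 0.04 to 0.05 on the PE arrays.

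The direct comparison of plasma after NHD with plasma before NHD, the central question of the design, called 0 of the 71 genes with limma (33 at an unadjusted p under 0.05). Over all genes 0.379% were higher and 0.103% lower, and 3078 of the 14506 had an unadjusted limma p under 0.05. The median member difference was 0.19, against -0.01 for all genes. In all 71 genes the ranges of the 2 groups overlapped, which was not counted over all genes.

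The smallest p-values belonged to Mrpl23, Mrps18a and Mrps18c. Mrpl23 read 8.46, 8.98, 8.63, 10.54, 7.93 and 10.44 on the before NHD arrays, so that arrays 4 and 6 lay at or near the after NHD range of 10.50 to 10.62 and the other 4 lay far below it. The difference was 1.39 ± 0.36 (adjusted p = 0.0776). Mrps18c showed the same split, with 8.44, 9.04, 8.33, 10.16, 8.41 and 10.53 before NHD against 10.09 to 10.45 after it (1.15 ± 0.31, adjusted p = 0.0845). Mrps18a ran from 10.55 to 10.93 before NHD and from 10.86 to 11.08 after it (0.28 ± 0.08, adjusted p = 0.0845). Without before NHD array 4 the comparison called 15 genes, and without before NHD array 6 it called 14.

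With PE, 16 of the 71 genes were higher than with control plasma and 14 were lower. Over all genes 11.7% were higher and 11.9% lower, and the medians were 0.03 for the members and -0.06 for all genes. Of the large subunit genes 11 were higher and 11 lower, and of the small subunit genes 5 were higher and 3 lower. The family thus split, with a median near 0 and differences from -1.46 to 2.83.

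Among the higher genes mrpl11 read 9.85 and 9.85 on the PE arrays, 2.83 ± 0.67 above control plasma (adjusted p = 0.0087). Mrpl23 read 10.61 and 10.67 (2.60 ± 0.57), Mrpl48 8.11 and 8.33 (1.97 ± 0.41), Mrps26 9.36 and 9.33 (1.68 ± 0.34) and Mrps18c 10.12 and 10.21 (1.59 ± 0.50). All of these values lay above all control values of the same gene. Mrpl19, Mrpl15, Mrps23, Mrpl46, Mrps25, Mrpl42, Mrpl13, Mrpl34, Mrps11, Mrpl30 and Mrpl52 rose by 0.58 to 1.58.

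By site, 3 of the 5 genes listed for the tunnel exit were lower with PE and 1, Mrpl23, was higher. Of the 3 stalk genes 1 was lower, Mrpl10, and 1 was higher, mrpl11. Mrpl47 read 11.63, 11.61 and 11.57 with control plasma and 9.95 and 10.33 with PE (-1.46 ± 0.21, adjusted p = 0.00061). Mrpl45, the membrane anchor, read 11.39, 11.17 and 11.36 and then 9.92 and 10.28 (-1.21 ± 0.18, adjusted p = 0.000683). In both genes the PE arrays lay below every other array of the study. Mrpl22 (-0.67 ± 0.14) and the stalk base Mrpl10 (-0.79 ± 0.17) were also lower. Mrps18b read 9.72 and 9.98 (-1.42 ± 0.21), Mrpl32 8.36 and 8.35 (-1.09 ± 0.18) and Mrpl57 10.81 and 10.81 (-0.88 ± 0.13). The other falls, in Mrps33, Mrpl50, Mrpl43, Mrpl53, Mrpl27, Mrps30 and Mrpl2, were between -0.44 and -0.70.

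With 2 PE arrays the spread came mostly from the other groups. The comparison called 11 members without PE array 1, 9 without PE array 2 and 17 (6 higher, 11 lower) without control array 1. With the array SD as a term 8 members were higher and 16 lower. Of the 30 calls 8 held in every setting, in Mrps26, which rose, and in Mrpl43, Mrpl22, Mrpl45, Mrpl57, Mrpl32, Mrpl47 and Mrps18b, which fell. The summed fibroblast marker level on the PE arrays, 14.29 to 14.56, was above that of all other arrays. The 12 markers had a median difference from control plasma of 1.58, with 1 called (S100a4, 1.84 ± 0.31), and their part in the member differences was not tested.

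Against plasma after NHD, PE gave lower values in 8 members and higher values in 0. Over all genes 0.689% were lower and 0.662% higher, and the medians were -0.34 for the members and 0.00 for all genes. The 8 comprised 5 large and 3 small subunit genes by name. This comparison shares the PE arrays with the preceding one and the after NHD arrays with the first, so its values are given beside theirs.

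In Mrpl47 the lowest, median and highest values after NHD were 11.05, 11.43 and 11.82, against 9.95 and 10.33 with PE (-1.30 ± 0.19, adjusted p = 0.00366). Mrpl45 ran from 10.91 to 11.12 after NHD, against 9.92 and 10.28 (-0.93 ± 0.16, adjusted p = 0.0115). Mrpl10 (-0.68 ± 0.15), Mrps30 (-0.59) and Mrpl2 (-0.57) likewise read lower with PE than with control plasma, by -0.79, -0.44 and -0.44. For these 5 genes the after NHD level differed from control plasma by -0.28 to 0.14, and none of those differences passed.

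The other 3 genes were higher after NHD than with control plasma, and their differences between PE and control plasma did not pass. Mrpl38, of the central protuberance, ran from 10.12 to 10.56 after NHD and read 9.20 and 9.38 with PE (-1.07 ± 0.22, adjusted p = 0.0266), against 9.67, 9.85 and 9.64 with control plasma. Mrps16 ran from 9.73 to 10.07 and read 9.03 and 9.17 (-0.78 ± 0.14). Mrps31 ran from 9.09 to 9.35 and read 8.55 and 8.52 (-0.65 ± 0.13), close to its control values of 8.44, 8.63 and 8.45. For mrpl11 and Mrpl23 the differences between PE and after NHD were -0.43 ± 0.59 and 0.09 ± 0.51, errors too wide to tell the levels apart. Without PE array 1 the comparison called 0 members with limma (17 at an unadjusted p under 0.05), and without PE array 2 it called 1, Mrpl47. The call of Mrpl10 was lost without any of 11 arrays and that of Mrpl38 without any of 5. The fibroblast markers had a median difference of 1.15 here, with 0 called, and their part was not tested.

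**Figure D4:**
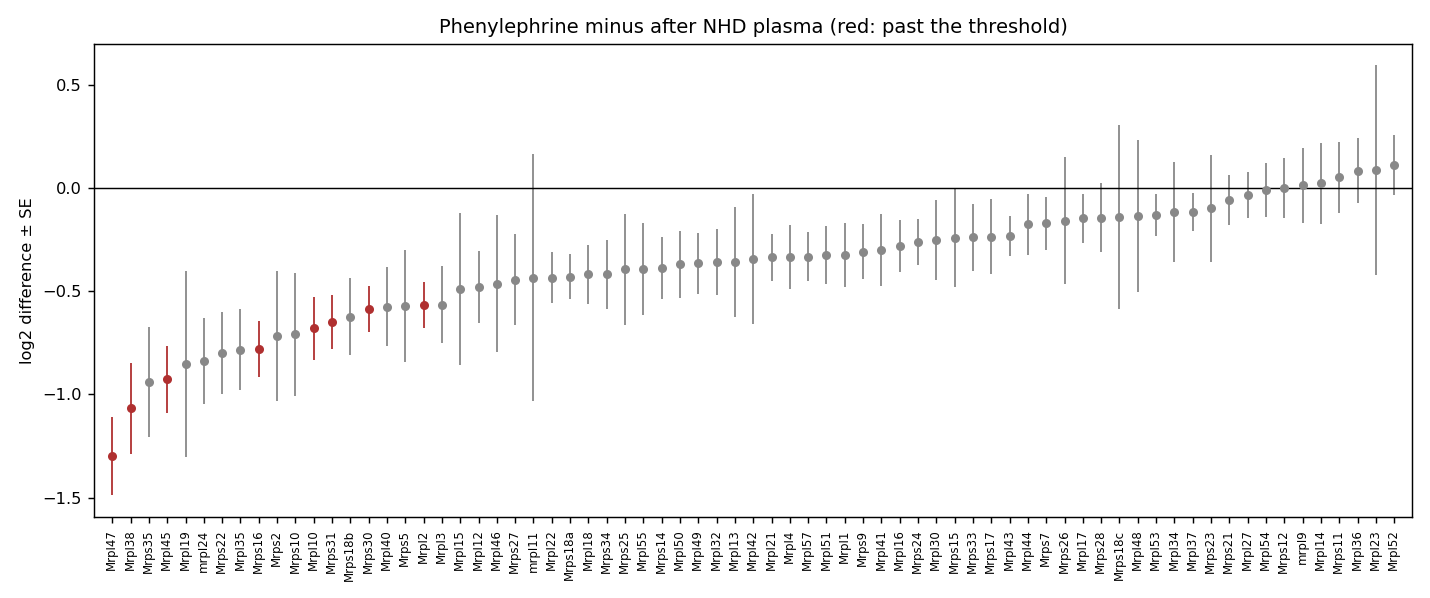
Log2 difference between PE and after NHD plasma for the 71 genes (points, limma estimate ± SE), in order of size, with the 8 called genes in red. The called genes run from Mrpl47 (-1.30) to Mrpl2 (-0.57), and only 7 of the 71 points lie above 0.

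Of the 71 genes, 18 were called in no comparison. The 4 genes with a second probe set (Mrps11, Mrpl40, Mrpl41 and Mrpl42) had the same call from both in each of the 5 comparisons. In Mrps11 the size differed, with a rise after NHD against control plasma of 0.70 by the probe set used and 1.72 by the other.

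The other genes of mitochondrial translation were read from separate lists. Respiratory chain and ATP synthase subunits include proteins whose mitochondrially encoded partners the mitoribosome makes, though not all have such partners. Of the 74 genes on this list 31 were higher after NHD than with control plasma and 0 were lower (median 0.33). The 31 are 41.9% of the list. Before NHD 5 were higher (6.76%) and 0 lower, and with PE 9 were higher (12.2%) and 2 lower (2.70%). Cytosolic ribosomal proteins were higher after NHD in 5 of 68 genes (7.35%) and lower in 13 (19.1%, median -0.11). With PE 4 of these were higher (5.88%) and 3 lower (4.41%). Of all genes, 16.7% were higher and 16.3% lower after NHD. These shares were 3.75% and 2.09% before NHD, and 11.7% and 11.9% with PE. How the lists differ from the mitoribosomal genes was not tested.

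**Figure D5:**
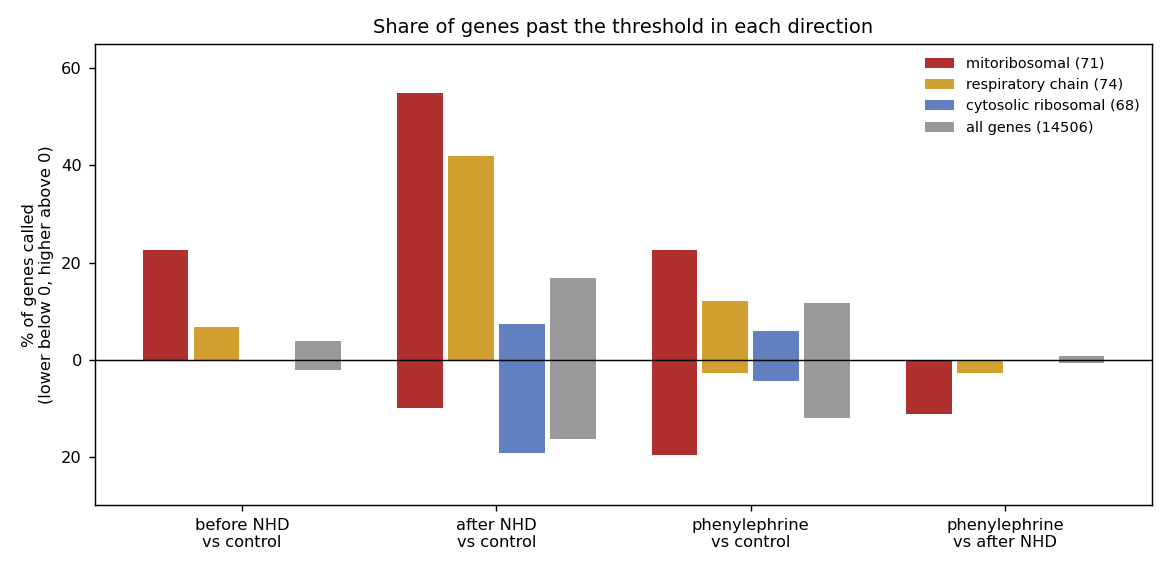
Bars give the percentage of genes called higher (above 0) and lower (below 0) in 4 comparisons, for the 71 mitoribosomal genes, 74 respiratory chain genes, 68 cytosolic ribosomal genes and all 14506 genes. After NHD against control plasma 54.9% of the mitoribosomal genes were higher, against 16.7% of all genes, and with PE their shares were 22.5% higher and 19.7% lower.

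Mitoribosome proteins that carry other names were higher after NHD than with control plasma in 3 of 5 and lower in 1. These were Chchd1 (0.78 ± 0.15), Gadd45gip1 (0.54 ± 0.13) and Ptcd3 (0.54 ± 0.14), with Aurkaip1 lower (-0.56 ± 0.13). Of 11 translation factors and their partners 5 were higher (45.45%) and 1 lower (9.09%), where 16.7% and 16.3% of all genes were. Lrpprc, which stabilises mitochondrial messenger RNAs, rose by 1.56 ± 0.23 and Letm1, an inner membrane protein, by 1.29 ± 0.23, while Mrrf, the factor that recycles the ribosome after each round, fell with a difference of -1.10 ± 0.18. Of 13 mitochondrial aminoacyl-tRNA synthetases 6 were higher (46.2%) and 1 lower (7.69%), with Tars2 at 0.90, Lars2 at 0.56 and Nars2 at -0.51.

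Of 23 genes for building the ribosome and modifying its RNA 5 were higher after NHD (21.7%) and 6 lower (26.1%), where 16.7% and 16.3% of all genes were. Eral1, which binds the small ribosomal RNA during assembly, lay at 6.58, 7.04 and 6.61 with control plasma and between 9.03 and 9.29 after NHD (2.43 ± 0.38, adjusted p = 0.000561). Noa1 lay at 9.22, 9.30 and 9.16 and then between 7.70 and 8.19 (-1.32 ± 0.20), and Mterf3 differed by -1.41 ± 0.21. The groups did not overlap in Eral1 or Noa1. Genes that act on the mitochondrial genome or its transcripts were higher in 4 of 15 (26.7%) and lower in 4 (26.7%). Among them were Supv3l1 (1.11), the helicase Twnk (-1.21) and Mterf1 (-1.21). Of 11 nuclear regulators 2 were higher (18.2%) and 2 lower (18.2%), shares close to those of all genes. Ppargc1b, a coactivator of mitochondrial genes, rose by 1.08 ± 0.16, and the GABP subunits Gabpa and Gabpb2 fell, with differences of -0.70 ± 0.12 and -1.18 ± 0.23. Nrf1 differed by 0.00 ± 0.12 and did not pass.

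Among markers of cells, 3 of 12 myocyte genes (25%) were higher before NHD than with control plasma, where 3.75% of all genes were. After NHD 6 of the 12 (50%) were higher and 0 lower, where 16.7% and 16.3% of all genes were. Of other cell types the fibroblast gene S100a4 (1 of 12) and the endothelial gene Kdr (1 of 7) were higher and the smooth muscle gene Cnn1 (1 of 5) lower, while 0 of 7 leukocyte, 0 of 2 neural and 0 of 2 erythroid markers passed. The part of the myocyte markers in the member differences was not tested.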

How the data were processed

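Per the submitters' processing notes, the deposited log2 values of the 17 arrays come from RMA. Neither its version nor the probe set definition is given in the sources used here. RMA equalises the arrays' distributions, so it hides a shift common to most genes, and it compresses differences at both ends of the scale. The log2 scale was read from the values (1.28 to 14.29, 0 missing). Probe sets were named from the platform annotation (15310 with 1 symbol, 323 with several, 13581 with none), updated with RefSeq GRCr8 (15279 matched).

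All 29214 probe sets were tested in 1 fit of the 4 groups with limma 3.58.1 in R 4.3.3 (lmFit, eBayes, residual degrees of freedom 13, prior 3.32, with two-sided tests), in 5 comparisons, and the code was tested on simulated data. All differences and medians are on the log2 scale. A marker list's summed level is the log2 of the sum of its linear values. The number of arrays limits the precision. No batch label was given. Titles of before NHD samples 2 and 3 hold 2 replicate numbers, of which the second was taken. Same-numbered before and after NHD samples were not treated as paired, since the labels do not say what a number shares.

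Members and lists were chosen with earlier results of these data known. Named genes were the 5 greatest rises and 5 greatest falls past the threshold in each comparison (where none passed, the 3 with the smallest p), mrpl11, the 3 highest and 3 lowest in mean, members whose probe sets disagree (0 did, and the 4 with several are named to account for them), and up to 3 of each other list. Other members are named to complete a counted set or a site of the ribosome and were chosen after their values were seen, as were Ptcd3 and Nrf1. The alternatives were other normalizations, fits and filters, and each array left out.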

Additional observations from a re-analysis of the deposited data

Results flagged for a closer look

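In the groups of 6, 142 tests were made (71 genes before NHD and 71 after NHD). In 7 of them the gap of 1 array to the nearest of the others was a large share of the group's range. Chance gives this in about 1 in 20 tests, close to the share seen. Before NHD, array 1 was low in Mrpl49 (9.17) and in Mrpl45 (10.66), and array 5 was high in Mrpl37 (10.07). After NHD, array 2 was high in Mrpl55 (8.76) and in Mrpl53 (10.98), and array 4 was low in Mrps11 (9.23) and high in mrpl9 (8.996). Array 2 and array 4 after NHD and array 1 before NHD each gave 2 of the 7.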

How the results depend on the processing

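Each of the 71 genes was followed in 5 comparisons under 28 alternatives. Of these values 9251 kept their direction and their side of the threshold, 321 lost the threshold and 223 gained it. Another 145 changed sign or came to 0, all in genes that passed under neither setting, and 0 changed sign among those that passed in either. With array weights the fit called 15 members after NHD against before NHD (10 higher, 5 lower), 34 before NHD against control plasma and 34 with PE against after NHD. With only the compared groups in the fit the last 2 comparisons gave 0 (24 at an unadjusted p under 0.05) and 22. The array SD as a term left 0 before NHD and 25 after NHD against control plasma. Leaving out the samples numbered 4 of both NHD groups gave 13 members after NHD against before NHD. Calls over all genes were counted only in the main fit, so the counts under all alternatives stand without that share. The cause of these moves was not tested. Leaving out each array in turn gave 0 to 15 members after NHD against before NHD, 0 to 27 before NHD and 35 to 48 after NHD against control plasma, 9 to 33 with PE against control plasma and 0 to 12 with PE against after NHD. With the replicate number as a block the 5 counts, in the order of the preceding sentence, were 0, 21, 47, 32 and 10, and 44 of the 46 calls after NHD against control plasma were kept. That block also joined the control and PE arrays of the same number, so it does not test before and after NHD pairing alone. Same-numbered before and after NHD samples had correlated deviations of -0.03 to 0.60, and 3 of 6 matched their own number best. Whether the numbers mark pairs cannot be told from these values and the labels, and a paired fit of the 2 NHD groups alone was not run. Where 1 PE array was left out, the remaining one is assumed to vary like the other groups. Other normalizations moved the median of all genes by under 0.1. Signal over background was not given, so dim probe sets are limited only by their spread.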
